A study of Mus musculus with 2 samples.

Results

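The long noncoding RNA genes Malat1 and Neat1, and Gm37376, a gene model inside Malat1 on the opposite strand, were measured by long-read RNA sequencing of mouse adrenal gland. These 3 genes, of 17707 detected, were taken by name from the deposited tables, together with every transcript model on either strand that overlaps Malat1 or Neat1. The genes were chosen by their ratio between the libraries, which an earlier look at these data had shown, so those ratios are given as a description and without a test. The 3 genes held 14 transcript models in replicate 1 and 11 in replicate 2. The series is 1 group of 2 libraries, both from adrenal gland of B6CASTF1/J females, an F1 hybrid, at 18 to 20 months of age, with no treatment or engineered allele in the labels. Each library was made from 1 µg of total RNA. The labels give the libraries separate biosamples but 1 donor entry, so whether they come from separate animals is not settled, and p-values below cover counting error between these libraries alone. In whole tissue, fewer cells of a type and less RNA per cell cannot be told apart.

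Malat1 is an abundant RNA that stays in the nucleus and gathers at nuclear speckles, bodies rich in splicing factors. Its primary transcript is cut near the 3′ end by RNase P, which releases a small tRNA-like RNA and leaves the long RNA with a genomically encoded A-rich tract that folds into a triple helix in place of a poly(A) tail. Neat1 builds paraspeckles, nuclear bodies that hold RNA-binding proteins such as Sfpq and Nono. Its promoter drives a short polyadenylated transcript and a long one that shares the same 5′ end and is also cut by RNase P. The long form is the scaffold of the paraspeckle. Both genes lie next to each other on the minus strand of chromosome 19.

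In mm10 coordinates with the GENCODE M21 annotation, Malat1 (ENSMUSG00000092341.3, lincRNA) spans chr19:5795690-5802672, 6983 bases on the minus strand. Neat1 (ENSMUSG00000092274.3, lincRNA) spans chr19:5824708-5845478, 20771 bases on the same strand, and 22035 bases separate the genes. Gm37376 (ENSMUSG00000102349.1) spans chr19:5801941-5802393, 453 bases on the plus strand, wholly inside Malat1. The annotation classes it as TEC, a model still to be experimentally tested. The sources used here do not say how the strand of each read was set, so reads of an opposite-strand RNA and reads of Malat1 or Neat1 given the wrong strand cannot be told apart.

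Replicate 1 held 1478362 reads and replicate 2 held 1007541. Of these, 1412947 and 933963 were on annotated mouse genes and are the basis of CPM, reads per 1000000 reads on annotated genes. Because 1 long read stands for 1 cDNA molecule, CPM was not divided by length. A count of 0 allows up to 3 reads, which is 2.12 CPM in replicate 1 and 3.21 CPM in replicate 2. All 6 adrenal cortex markers and all 5 medulla markers were read in both libraries, with summed levels of 52911 and 59452 CPM for cortex and 11990 and 9406 CPM for medulla. The libraries differed in tissue content beside the adrenal: 5 skeletal muscle markers summed to 989 reads in replicate 1 and 1 read in replicate 2, with Acta1, Ckm, Myh4 and Tnnt3 not read in both. Adipocyte markers summed to 5135 and 3653 CPM, endothelial markers to 312 and 346 CPM and macrophage markers to 117 and 164 CPM. The part of these differences in the results below was not tested.

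Malat1 was among the most abundant RNAs of the gland. It had 2220 reads in replicate 1 and 3796 in replicate 2, or 1571 CPM (exact 95% interval 1507 to 1638) and 4064 CPM (3936 to 4196). These levels ranked it 52 and 10 among genes, with a mean of 2818 ± 1763 CPM (SD, n = 2). Neat1 was far lower, with 38 and 90 reads, or 26.9 CPM (19.03 to 36.9) and 96.4 CPM (77.5 to 118), a mean of 61.6 ± 49.1 CPM (SD, n = 2). Gm37376 had 33 and 73 reads, or 23.4 CPM (16.1 to 32.8) and 78.2 CPM (61.3 to 98.3), a mean of 50.8 ± 38.8 CPM (SD, n = 2). Within each library Malat1 stood above the others by far more than counting error, while the intervals of Neat1 and Gm37376 overlapped.

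The 3 genes were higher in replicate 2. After scaling of the libraries by TMM, a factor taken from the bulk of genes, Malat1 was 2.53-fold higher (interval 2.40 to 2.67, a log2 ratio of 1.34). The fold was 3.50 for Neat1 (2.37 to 5.26, log2 ratio 1.80) and 3.27 for Gm37376 (2.14 to 5.10, log2 ratio 1.70). All 3 passed 2-fold, as did 6.78% in this direction of the 11068 genes with a summed count of 10 reads or more. The members were chosen with this ratio known, so their share beside the background is no result. Among 4377 genes whose summed count reached 100 reads, Neat1 ranked 7, Gm37376 10 and Malat1 35 by this ratio. The genes next to Malat1 in that order were Dlg1, at a log2 ratio of 1.34, and Gstk1, at 1.32. ERCC spike-in RNAs took 1.24% and 1.54% of reads, and scaling by their totals lowered the ratios, to 2.02-fold for Malat1, 2.79-fold for Neat1 and 2.61-fold for Gm37376. It also moved the median log2 ratio of all genes from 0.00 to -0.32, and the counts of genes past 2-fold from 750 in replicate 2 and 664 in replicate 1 to 327 and 1308.

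**Figure D1:**
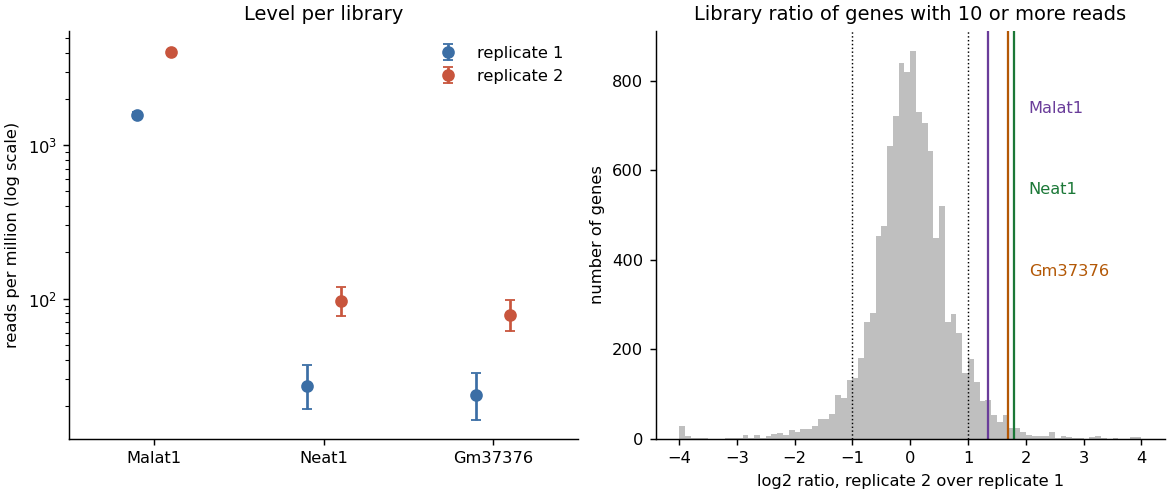
Left: level of each gene in each library in CPM on a log axis, with points for replicates 1 and 2 and bars for the exact 95% counting interval (for Malat1 the bars are smaller than the points). Right: number of genes by log2 ratio of replicate 2 over replicate 1 for the 11068 genes measured, with ratios beyond 4 drawn in the end bins, coloured lines for the 3 genes at 1.34, 1.80 and 1.70, and dotted lines at 2-fold.

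The genes whose levels were closest to Malat1, by Euclidean distance in log2 CPM over both libraries, were Abcb1b, with 2679 and 3247 reads at a distance of 0.353, Scarb1 at 0.677 and Akr1d1 at 0.816. Scarb1 encodes the receptor that takes up cholesterol from high-density lipoprotein. Closest to Neat1 were Cbarp, with 39 and 99 reads at a distance of 0.143, Spink4 at 0.152 and Myh9 at 0.252. Each distance rests on 2 values per gene.

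Reads of Malat1 were almost all unspliced. The annotated 1-exon transcript Malat1-201, which covers the whole gene, held 2216 of 2220 reads in replicate 1 and 3793 of 3796 in replicate 2. The share of single-exon models, 99.8% and 99.9%, gave no difference between the libraries that passed Fisher's exact test (p adjusted by Benjamini-Hochberg over the 6413 genes that had 20 or more reads per library, adjusted p = 1). At this threshold 1.17% of those genes differed. The median gene had 3.13% and 4.41% of its reads on single-exon models, and 3.17% and 3.24% of genes were at or above the share of Malat1. The remaining 4 and 3 reads were on spliced models of 1 read each. The models held 7 introns on the strand of Malat1, all with GT and AG at their ends, 1 annotated and 0 found in both libraries. Of the annotated spliced transcripts, Malat1-203 had 0 and 1 reads, and Malat1-202 and Malat1-204 had 0 reads in both libraries. Because reads on a 1-exon model are listed under that model's own ends, where each Malat1 read began and stopped is not in the tables.

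The 3′ part of Malat1 is shown because it holds both the encoded A-rich tract and the annotated end of the transcript that took nearly all reads. The A-richest 20 bases of the transcript held 17 A, began at position 6674 from its 5′ end and included a run of 12 A that stopped 298 bases before the annotated 3′ end. The annotated end itself holds AATAAA, the usual signal for cleavage and polyadenylation. The first sequence (chr19:5795950-5796029, minus strand, GRCm38/mm10, from the GENCODE transcript) has the 20 A-richest bases in capitals, and the second (chr19:5795690-5795749, minus strand) has AATAAA in capitals.
Malat1 A-rich tract: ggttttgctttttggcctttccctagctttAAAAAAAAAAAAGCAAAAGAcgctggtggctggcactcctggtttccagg
Malat1-201 last 60 bases: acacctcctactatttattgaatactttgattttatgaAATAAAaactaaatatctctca

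A smaller set of reads lay over Malat1 on the opposite strand. These numbered 142 on 8 models in replicate 1 and 403 on 5 models in replicate 2, which was 6.01% (5.09 to 7.05) and 9.60% (8.72 to 10.5) of the reads of Malat1 and its opposite strand together. The median gene had 1.49% and 2.94% by the same measure, and 26.7% and 25.9% of genes were at or above Malat1. Opposite-strand reads were 4.20-fold higher in replicate 2 (interval 3.46 to 5.12), against 2.53-fold for Malat1 itself. Reads on unannotated genes that the authors' files class as antisense, called antisense-class reads here, over the whole library were 2.80% of mouse reads in replicate 1 and 5.25% in replicate 2, a 1.88-fold difference (1.86 to 1.91). For the 992 genes with at least 10 antisense-class reads the median log2 ratio was 0.96. Of those genes, 8.27% had a ratio at or above that of the antisense-class reads over Malat1, which was 4.48-fold (3.60 to 5.61). Thus the libraries also differed in opposite-strand reads genome-wide, and the part of that in the Malat1 values was not tested.

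One place took most of the opposite-strand reads over Malat1. The 1-exon model at chr19:5798022-5799000, 979 bases long, held 72 of 142 reads in replicate 1 (50.7%, interval 42.2 to 59.2) and 260 of 403 in replicate 2 (64.5%, 59.6 to 69.2). It was the unannotated opposite-strand model with the same start and end in both libraries. Its end, 5799000, is also the last base at the 3′ side of Gm27694, a small annotated RNA on the strand of Malat1 that had 2 and 1 reads. Gm37376 followed with 33 of 142 reads (23.2%) and 73 of 403 (18.1%), of which 32 and 73 were on its annotated transcript Gm37376-201. The other Gm37376 read in replicate 1 was on a spliced model that ran from 5799000 to 5802393. Smaller opposite-strand models with at least 10 reads were at chr19:5796389-5797464 with 18 reads and chr19:5799000-5800216 with 15 in replicate 1, and at chr19:5797004-5797464 with 27 reads and chr19:5799852-5800298 with 38 in replicate 2. The end at 5797464 was thus present in both libraries, with 18 and 27 reads, and is also an annotated exon edge of Malat1-202. In all, 7 of 8 models in replicate 1 and 4 of 5 in replicate 2 had a start or an end at an annotated exon edge of either strand. Single-exon models held 139 of 142 and 403 of 403 of these reads.

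**Figure D2:**
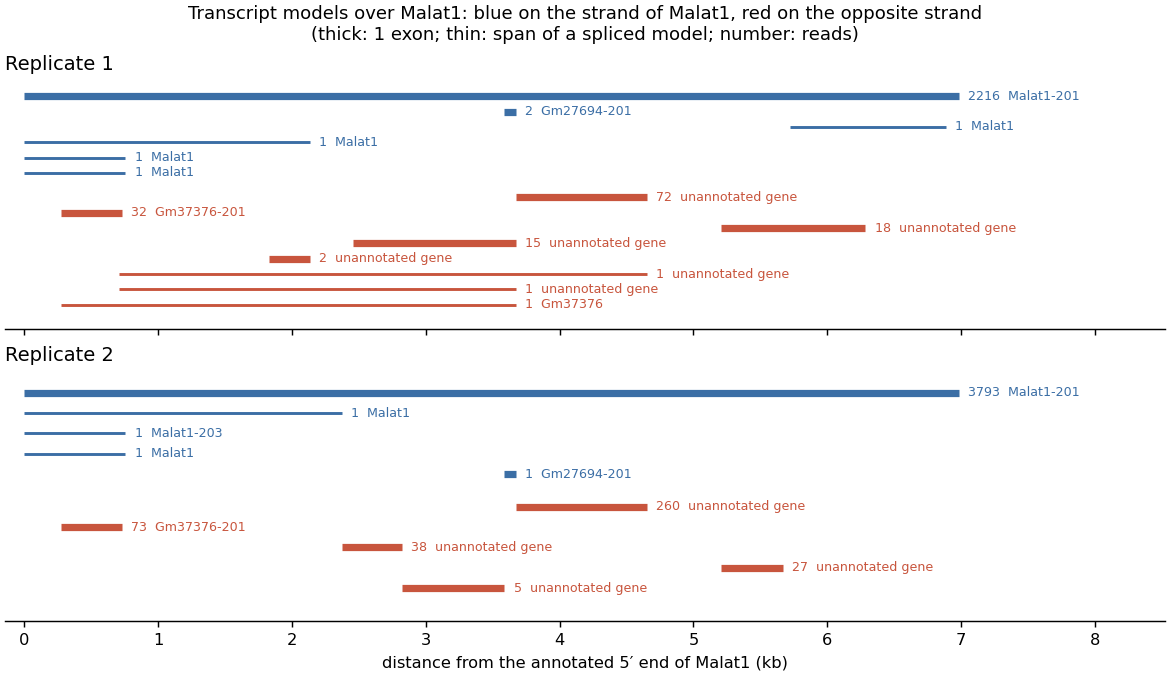
Transcript models over Malat1 in each library against the distance from the annotated 5′ end of Malat1 in kb, blue on the strand of Malat1 and red on the opposite strand, with thick bars for 1-exon models, thin lines for the span of spliced models and the number of reads beside each. Malat1-201 holds 2216 and 3793 reads, and the opposite-strand model with 72 and 260 reads has the same position in both libraries.

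The 3′ ends of the opposite-strand models over Malat1 were compared with the genome around them, because a stretch of A in the genome right after a read's end is a place where an oligo(dT) primer can anneal to RNA inside a transcript. Leaving out Gm37376, the 20 bases after the end held at least 12 A at 1 of 5 ends in replicate 1, with 2 of 109 reads (1.83%, interval 0.223 to 6.47), and at 1 of 4 ends in replicate 2, with 5 of 330 reads (1.52%, 0.494 to 3.50). Of all 20-base windows on the plus strand of the Malat1 span, 2.07% hold at least 12 A. The most used end, 5799000, was followed by 4 A in 20 bases. Annotated exon edges, 5799000 and 5797464 among them, made up 3 of 5 ends in replicate 1 and 2 of 4 in replicate 2. Reads on a 1-exon model are listed under that model's own ends, so these counts describe model ends. Whether the reads themselves stopped before a stretch of A was not tested. Neither AATAAA nor ATTAAA was found in the 40 bases before any of these ends, and 3.89% of 40-base windows on that strand hold 1 of them. With 5 and 4 ends in the libraries, this absence is no result. The ends with most reads are shown with 40 bases up to the last base of the model in lower case and the 20 genomic bases after it in capitals (plus strand, mm10, at chr19:5798961-5799020, chr19:5797425-5797484, chr19:5800259-5800318 and, for the Gm37376 end, chr19:5802354-5802413, in this order).
End 5799000, 72 and 260 reads: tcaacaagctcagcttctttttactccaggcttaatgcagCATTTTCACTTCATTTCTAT
End 5797464, 18 and 27 reads: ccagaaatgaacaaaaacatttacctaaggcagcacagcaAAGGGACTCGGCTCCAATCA
End 5800298, 38 reads in replicate 2: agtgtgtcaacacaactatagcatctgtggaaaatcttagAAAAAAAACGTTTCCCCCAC
End 5802393 of Gm37376, 33 and 73 reads: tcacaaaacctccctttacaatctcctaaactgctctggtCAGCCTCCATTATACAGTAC
None of these 4 ends met the count of 12 A. The end at 5800298 came closest, with 9 A that include a run of 8.

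Most reads on the strand of Neat1 were given by the authors to a small RNA inside the gene and not to Neat1 itself. Gm28006, annotated as a misc_RNA of 122 bases at chr19:5844916-5845037 on the strand of Neat1, lies near the 5′ end that both Neat1 transcripts share. It held 274 and 570 reads, or 194 and 610 CPM, a mean of 402 ± 294 CPM (SD, n = 2) and a log2 ratio of 1.62. These were 86.2% (81.9 to 89.8) and 84.6% (81.6 to 87.2) of all reads on the strand of Neat1 over its span. Of 562 annotated misc_RNA genes 26 were detected, and Gm28006, the most abundant of them, was the 1 with at least 20 reads in each library. It lies wholly within the transcribed part of Neat1, so whether its reads are pieces of Neat1 or a separate RNA was not tested. For every gene, models of other genes that overlap its span on its strand by at least 1 base were counted. They had at least as many reads as the gene itself, in both libraries, at 35 of 6413 genes (0.546%). Unlike Gm28006, such models need not lie wholly inside the gene. Pooled with Gm28006 and the small models Gm27505 and Gm27533, Neat1 had 318 and 674 reads, 3.14-fold higher in replicate 2 (2.74 to 3.59) against 3.50-fold for the reads under its own name. The sequence of Gm28006 is printed because it carries most reads of the Neat1 strand (minus strand, GRCm38/mm10, from the GENCODE transcript), followed by the last 60 bases of the short transcript Neat1-202 (chr19:5842307-5842366, minus strand), with AATAAA in capitals.
Gm28006: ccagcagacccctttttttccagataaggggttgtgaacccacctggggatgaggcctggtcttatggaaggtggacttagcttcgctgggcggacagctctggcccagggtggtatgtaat
Neat1-202 last 60 bases: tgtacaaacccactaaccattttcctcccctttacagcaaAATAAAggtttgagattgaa

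Under the Neat1 name, reads fell on the annotated long transcript and on a set of spliced short models. The 1-exon transcript Neat1-201, which covers all 20771 bases, held 25 of 38 reads in replicate 1 (65.8%, 48.6 to 80.4) and 73 of 90 in replicate 2 (81.1%, 71.5 to 88.6). This share, which is both the single-exon share and the share on models that run past the short end, did not pass the test (Fisher's exact test, p = 0.0710 for this gene alone and adjusted p = 0.699 over 6413 genes). By comparison, 4.88% and 4.05% of genes had a single-exon share at or above that of Neat1. As with Malat1, the tables do not show how far each of these reads ran, so a read on Neat1-201 may lie within the part that the short transcript shares. Annotated transcripts held 30 of 38 reads (78.9%, 62.7 to 90.4) and 76 of 90 (84.4%, 75.3 to 91.2), close to the gene medians of 80.3% and 76.9%. The annotated shares of Malat1, Neat1 and Gm37376 did not pass the same test (adjusted p = 0.768, 0.971 and 0.896), while 1.86% of genes did.

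The spliced Neat1 models ended together at the 3′ end of the short transcript, 5842307. The annotated short form Neat1-202, 3004 bases of 2 exons, had 5 and 3 reads, and Neat1-203 and Neat1-204 had 0 reads in both libraries. An unannotated 2-exon model of 3027 bases had 2 and 8 reads, and 3-exon models of 2863 bases in replicate 1 and 2861 in replicate 2 had 3 and 4 reads. The introns with more than 1 read lay within the first 1043 bases of the gene. One annotated intron, at chr19:5844435-5844577 and 143 bases long, had 7 and 13 reads, and another, at chr19:5844759-5844924 and 166 bases long, had 10 and 8. An unannotated intron of 351 bases at chr19:5845015-5845365 had 1 read in each library. Of the 5 introns on the strand of Neat1, 4 had GT and AG at their ends and 3 were found in both libraries. Apart from Neat1-201, the models on the strand of Neat1, with 293 and 601 reads, did not run past the 3′ end of the short transcript. Of these reads, 280 and 584 were on Gm28006, Gm27505 and Gm27533, whose annotated positions lie inside the short transcript's span. The spliced Neat1 models held 13 and 17, so the statement rests on few reads.

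**Figure D3:**
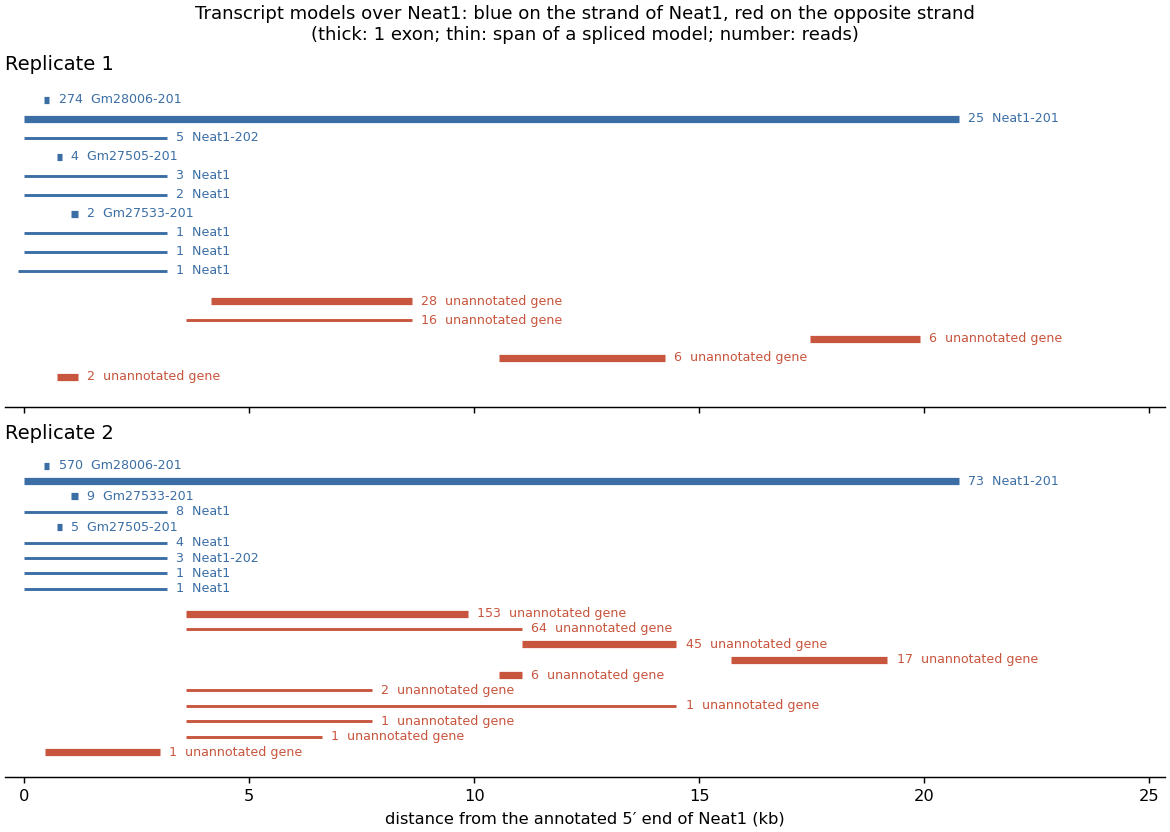
Transcript models over Neat1 in each library against the distance from the annotated 5′ end of Neat1 in kb, blue on the strand of Neat1 and red on the opposite strand, with thick bars for 1-exon models, thin lines for the span of spliced models and the number of reads beside each. Spliced Neat1 models stop at the end of the short transcript, and the opposite-strand models with most reads lie beyond it.

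Opposite-strand reads over Neat1 outnumbered the reads given to Neat1 in both libraries. There were 58 in replicate 1 and 291 in replicate 2, against 38 and 90, so they made up 60.4% (49.9 to 70.3) and 76.4% (71.8 to 80.6) of the reads of Neat1 and its opposite strand. Of genes measured, 3.49% and 1.54% were at or above these shares. When Gm28006 and the other small models on the Neat1 strand were counted in, the opposite strand made up 15.4% (11.9 to 19.5) and 30.2% (27.3 to 33.2) of reads over the span. All were on genes of the antisense class, and antisense-class reads equalled or passed a gene's own in both libraries at 37 of 6413 genes (0.577%). They were 7.42-fold higher in replicate 2 (5.58 to 10.02), and 1.71% of the 992 genes with at least 10 antisense-class reads had a ratio at or above this. As for Malat1, antisense-class reads were higher in replicate 2 genome-wide, and the part of that here was not tested.

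**Figure D4:**
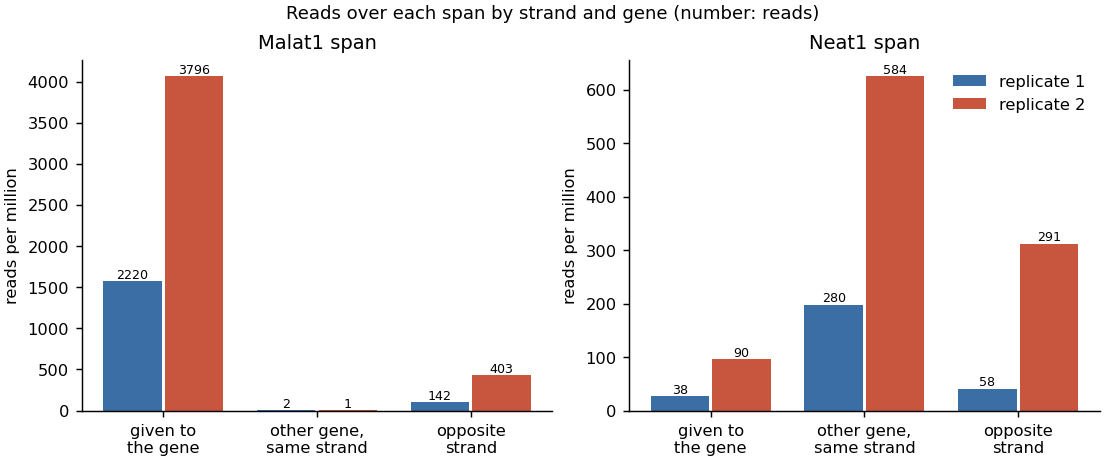
Level in CPM (bars from 0, with the number of reads above each) over the Malat1 and Neat1 spans in each library, split into reads given to the gene, to another gene on the same strand and to the opposite strand. Over Malat1 most reads are given to the gene, with 2220 and 3796, while over Neat1 most are given to other genes on the same strand, with 280 and 584.

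Opposite-strand reads over Neat1 were almost all on models in the part that belongs to the long transcript alone. That part is most of the gene, because the short transcript Neat1-202 spans 3170 of its 20771 bases. Whether the reads favoured it beyond its length was not tested. Models wholly beyond the short transcript held 56 of 58 reads in replicate 1 (96.6%, 88.1 to 99.6) and 290 of 291 in replicate 2 (99.7%, 98.1 to 100). Over all opposite-strand models of the Neat1 span, the median length was 3684 bases in replicate 1 and 3774.5 in replicate 2. The longest were 4965 and 7413 bases. In replicate 1 the models with at least 10 reads were chr19:5836860-5841334 with 28 reads and a spliced model at chr19:5836860-5841883 with 16. In replicate 2 they were chr19:5835612-5841883 with 153 reads, a 2-exon model at chr19:5834412-5841883 with 64, chr19:5830987-5834412 with 45 and chr19:5826301-5829772 with 17. These models had different starts in the 2 libraries but shared ends: 16 and 222 reads were on models that stopped at 5841883, and 6 and 6 on models that stopped at 5834931. Of all opposite-strand models over Neat1, 2 of 5 and 1 of 10 had a start or end at an annotated exon edge.

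Most opposite-strand reads over Neat1 were on models that stopped just before A-rich genomic bases. The 20 bases after the end held at least 12 A at 3 of 5 ends in replicate 1, with 50 of 58 reads (86.2%, 74.6 to 93.9), and at 3 of 5 ends in replicate 2, with 245 of 291 reads (84.2%, 79.5 to 88.2). Of all 20-base windows on the plus strand of the Neat1 span, 592 of 20752 (2.85%) hold that many, and 0.419% on the minus strand do. The end at 5841883 was followed by 18 A in a row and the end at 5834931 by 20. Ends followed directly by a run of at least 6 A held 22 of 58 reads in replicate 1 and 228 of 291 in replicate 2. Neither AATAAA nor ATTAAA was found in the 40 bases before any end, and 3.49% of such windows hold 1 of them. With 5 ends per library, this absence is no result. The end at 5834412, with 45 reads in replicate 2, was the exception among ends with at least 10 reads, with 4 A in 20 bases. That base is also the start of the 2-exon model with 64 reads in the same library. Whether these ends mark where an RNA stopped or where a primer annealed was not tested. The ends are shown with 40 bases up to the model's last base in lower case and the 20 genomic bases after it in capitals (plus strand, mm10, at chr19:5841844-5841903, chr19:5841295-5841354, chr19:5829733-5829792, chr19:5834892-5834951 and chr19:5834373-5834432 in this order).
End 5841883, 16 and 222 reads: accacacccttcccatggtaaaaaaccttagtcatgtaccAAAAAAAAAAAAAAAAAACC
End 5841334, 28 reads in replicate 1: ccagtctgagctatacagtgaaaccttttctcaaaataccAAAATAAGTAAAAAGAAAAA
End 5829772, 17 reads in replicate 2: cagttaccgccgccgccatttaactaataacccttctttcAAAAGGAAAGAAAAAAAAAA
End 5834931, 6 and 6 reads: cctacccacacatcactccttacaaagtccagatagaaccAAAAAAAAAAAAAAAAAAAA
End 5834412, 45 reads in replicate 2: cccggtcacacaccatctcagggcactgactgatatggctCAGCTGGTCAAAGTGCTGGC

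The gap that makes some of these opposite-strand models spliced was 59 bases long, at chr19:5840809-5840867, with 16 reads in replicate 1 and 65 in replicate 2. It was the 1 intron of 5 on this strand that was found in both libraries. Like the others it began with GT and ended with AG. With 3 further gaps at nearly the same place, 53 to 57 bases long, 16 of 44 reads on models across it had a gap in replicate 1 (36.4%, 22.4 to 52.2) and 69 of 222 in replicate 2 (31.1%, 25.1 to 37.6). The genome there holds a direct repeat: a stretch of 59 bases at chr19:5840771-5840829 recurs without a mismatch at a spacing of 58 bases, at chr19:5840829-5840887. The spacing of the copies and the length of the gap thus differ by 1 base. Whether the gap is an intron was not tested. The first sequence below is the repeated stretch, and the second (chr19:5840779-5840897, plus strand) has the 59 bases of the gap in capitals.
Repeated stretch opposite Neat1: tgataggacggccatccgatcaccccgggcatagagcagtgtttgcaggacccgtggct
Gap opposite Neat1: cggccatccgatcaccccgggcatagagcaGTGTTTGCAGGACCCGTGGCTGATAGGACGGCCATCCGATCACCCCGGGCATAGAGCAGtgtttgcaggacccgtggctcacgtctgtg

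The genes for proteins of the compartments of these RNAs were described as 3 lists. The lists below were drawn up with earlier results of these data known, so counts and medians are a description, read beside 6.78% of all genes past 2-fold in replicate 2, 6% in replicate 1 and a median log2 ratio of 0.00. Of 18 measured paraspeckle protein genes, 3 were past 2-fold in replicate 2 and 0 in replicate 1, with a median log2 ratio of 0.12 after TMM scaling and -0.20 after spike-in scaling. Sfpq, a core paraspeckle protein, had 85 and 152 reads, 2.65-fold higher in replicate 2 (2.02 to 3.49). Cpsf6, a cleavage factor subunit, had 56 and 78 reads, 2.06-fold higher (1.44 to 2.96). Pspc1, a relative of Nono and Sfpq, had 20 and 30 reads, 2.22-fold higher (1.219 to 4.12), and is named after its value was seen. Nono itself, the partner of Sfpq, went the other way, with 247 and 128 reads, 1.30-fold higher in replicate 1 (1.05 to 1.63). The more abundant members were Hnrnpk with 1051 and 700 reads, Matr3 with 287 and 205, and Ewsr1 with 475 and 221, which was 1.45-fold higher in replicate 1 (1.24 to 1.71). Thus Sfpq and Nono, whose proteins form dimers in paraspeckles, had opposite library ratios.

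All 24 nuclear speckle protein genes were measured, and 2 were past 2-fold in replicate 2 and 0 in replicate 1, with a median log2 ratio of 0.25 after TMM scaling and -0.07 after spike-in scaling, where all genes were at -0.32. After TMM scaling 20 of the 24 had a ratio above 0 and 4 below, against 5587 and 5481 of all genes. Both are scaffold proteins of the speckle: Son, with 68 and 123 reads, was 2.68-fold higher (1.97 to 3.65), and Srrm2, with 111 and 171 reads, 2.28-fold higher (1.78 to 2.92). The splicing factor genes with the highest levels were Srsf2 with 368 and 331 reads, Sf3b2 with 299 and 211, Srsf3 with 255 and 147 and the RNA helicase gene Ddx39b with 212 and 170. Their log2 ratios ran from -0.23 for Srsf3 to 0.41 for Srsf2. Genes for 3′ end processing and triple helix binding, among them RNase P subunits and the triple helix binding protein gene Mettl16, had a median of 0.00 over 12 measured members, and -0.33 after spike-in scaling. One of them was past 2-fold in replicate 2, the RNase P subunit gene Rpp38, with 11 and 18 reads. It was 2.42-fold higher (1.08 to 5.67) and is named after its value was seen. Rpp14 had 104 and 87 reads, the exonuclease gene Xrn2 114 and 80, Mettl16 105 and 60, and Trnt1, which adds CCA to tRNA ends, 89 and 70.

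Other noncoding RNA genes had median library ratios above that of all genes under both scalings. Of 15 other nuclear-retained noncoding RNA genes 14 were detected and 9 measured, 3 of them past 2-fold in replicate 2 and 0 in replicate 1, with a median log2 ratio of 0.69 after TMM scaling and 0.36 after spike-in scaling. Meg3, an imprinted nuclear RNA, had 207 and 382 reads, 2.73-fold higher in replicate 2 (2.30 to 3.25). Xist, the RNA that coats the inactive X chromosome, had 20 and 36 reads, 2.66-fold higher (1.50 to 4.85), while its antisense partner Tsix had 18 and 23. Gm26917, with 244 and 175 reads, had a log2 ratio of 0.09. Firre, with 5 and 9 reads, was the other member past 2-fold, at 2.66-fold (0.801 to 10.1), and is named after its value was seen. Noncoding RNAs that are exported to the cytoplasm or host small nucleolar RNAs had a median of 0.95 over 10 measured genes, and 0.62 after spike-in scaling, with 4 past 2-fold in replicate 2 and 0 in replicate 1. Gas5 had 73 and 93 reads, 1.88-fold higher (1.37 to 2.60), Snhg5 13 and 34, 3.87-fold higher (1.99 to 7.99), and Snhg20 31 and 44, 2.10-fold higher (1.30 to 3.44). The other 2 past 2-fold, Snhg17 with 7 and 10 reads and Snhg1 with 5 and 7, are named after their values were seen. The nuclear and the exported lists were thus alike in direction, and neither was set against the other by a test.

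**Figure D5:**
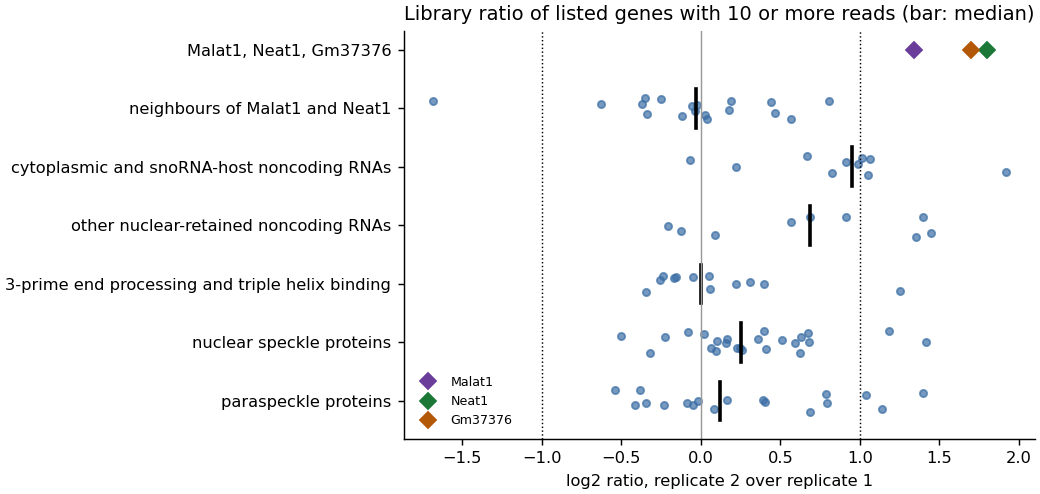
Log2 ratio of replicate 2 over replicate 1 after TMM scaling for each measured gene of 6 lists (points, spread vertically for sight) with the list median as a bar, and the 3 genes Malat1, Neat1 and Gm37376 as diamonds. Dotted lines mark 2-fold in either direction; medians run from -0.03 for the neighbouring genes to 0.95 for cytoplasmic and snoRNA-host noncoding RNAs.

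The genes around Malat1 and Neat1 on chromosome 19 had a median library ratio near that of all genes. Of 18 measured neighbours 0 were past 2-fold in replicate 2 and 1 in replicate 1, and the median log2 ratio was -0.03, or -0.36 after spike-in scaling. Ehbp1l1 had 188 and 122 reads and Ltbp3 169 and 117, with log2 ratios of -0.06 and 0.04. Frmd8, which flanks Neat1, had 206 and 90 reads, 1.55-fold higher in replicate 1 (1.20 to 2.00). The gene past 2-fold was Slc25a45, with 40 and 8 reads, 3.38-fold higher in replicate 1 (1.56 to 8.36), named after its value was seen.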

How the data were processed

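Long reads were sequenced from 2 adrenal libraries of 1 group. The deposited values are raw counts of long reads per transcript model on mm10 with GENCODE M21, per the file headers and an accompanying text file, and the field names are those of TALON. Aligner, versions and read filters are not given in the sources used here. Counts were summed per gene identifier over all models, and ERCC reads and unannotated genes were left out of gene totals. Library ratios divide replicate 2 by replicate 1 with TMM factors (edgeR 4.0.16, R 4.3.3) with a prior of 0.5 reads. DESeq2 1.42.0 gave the size factors of an alternative. Intervals are exact 95% binomial (Clopper-Pearson) and cover counting error only. Shares were compared by two-sided Fisher's exact tests with Benjamini-Hochberg adjustment at 0.05 (Python 3.11.15, scipy 1.17.1), tested on simulated data. The opposite-strand share was planned with that test but is described without it, because the counts that chose the genes enter it. Named were the 3 genes, their 3 most abundant models per library, opposite-strand models with at least 10 reads, per list the 4 genes with the highest mean CPM and those past 2-fold with at least 100 reads, and the 3 genes nearest in log2 CPM to Malat1 and Neat1. Features outside this rule were chosen after their values were seen. One gene that the rule names is not reported here. The genes and lists were chosen with earlier results of these data known. One listed neighbour symbol names 2 overlapping gene models, which were kept apart. Alternatives were other scalings, read minimums, model sets, overlaps, thinning and leaving out each library; A thresholds of 10 and 15 were added after seeing the data.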

Additional observations from a re-analysis of the deposited data

How the results depend on the processing

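The direction of the 3 library ratios, and the side of the threshold of each share tested, held under all alternatives run. Spike-in scaling lowered the Malat1 log2 ratio from 1.34 to 1.01, outside its counting interval. The counts past 2-fold, 750 in replicate 2 and 664 in replicate 1, became 1166 and 1044 with at least 5 reads, 181 and 146 with at least 50, 2933 and 3055 without a minimum, and 327 and 1308 after spike-in scaling. Leaving out 1 library gave means of 1571 to 4064 CPM for Malat1, 26.9 to 96.4 for Neat1 and 23.4 to 78.2 for Gm37376. With at least 50 reads over both libraries the median log2 ratio of other nuclear-retained noncoding RNAs was 1.40. This is the value of Xist alone, as the only other members left were Meg3 at 1.45 and Gm26917 at 0.09. With 15 A in place of 12, no end over Malat1 in replicate 1 was A-rich, 0% of reads. Neat1 has under 50 reads in replicate 1, so its shares have no value at that minimum. No paired analysis was possible because there is 1 group. The Neat1 and Gm37376 shares rest on 38 and 90 and on 33 and 73 reads, and their intervals are wide.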

Other observations

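The share of measured genes past 2-fold was counted by gene class. Past 2-fold in replicate 2 were 14 of 76 lincRNA genes (18.4%), 32 of 98 antisense genes (32.7%) and 6 of 13 TEC models (46.2%), against 647 of 10528 protein-coding genes (6.15%). Past it in replicate 1 were 9 lincRNA genes (11.8%), 7 antisense genes (7.14%) and 2 TEC models (15.4%), against 623 protein-coding genes (5.92%). The lincRNA genes thus passed 2-fold more often than protein-coding genes in both directions, and their median log2 ratio was 0.12, against 0.69 for antisense genes and 0.77 for TEC models. Genes with a main annotated transcript over 5000 bases passed it in replicate 2 at 152 of 1209 and in replicate 1 at 48, against 465 and 552 of 9147 up to that length. Those with most reads on single-exon models passed it in replicate 2 at 204 of 1235 (16.5%) and in replicate 1 at 76 (6.15%), against 546 (5.55%) and 588 (5.98%) of 9833. Genes in both the long and the single-exon class passed it in replicate 2 at 24 of 159 (15.1%) and in replicate 1 at 11 (6.92%). These are counts without a test, and Malat1 and Neat1 belong to the lincRNA, long and single-exon classes.

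An intron at chr19:5801380-5801832, 453 bases long, was read once on each strand of Malat1, in different libraries. On the strand of Malat1, in replicate 2, it had GT and AG at its ends, and on the opposite strand, in replicate 1, CT and AC, the reverse complement of the same bases. In replicate 1 a single read given to Neat1 was on a 4-exon model that began at 5845623, 145 bases before the annotated 5′ end of Neat1. That base is also the annotated start of Frmd8os-202 on the plus strand, and where the read itself began was not tested.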
